A study of Rattus norvegicus with 12 samples.

Results

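The 44 genes described here encode the enzymes and transporters that build and sulfate the chondroitin, dermatan and heparan sulfate chains of proteoglycans. They were matched by symbol to a list of pathway genes, drawn up with earlier results of these data known, out of 28546 genes in an RNA-seq table of rat articular chondrocytes. The list held 9 genes for sugar precursors and sulfate supply, 6 for the linker that joins chain to protein, 6 for elongation of chondroitin sulfate, 10 for its sulfation and epimerization, 5 for elongation of heparan sulfate and 8 for its modification. The cells came from knees of male Sprague Dawley rats, in which the anterior cruciate ligament had been ruptured by compression of the tibia, a model of post-traumatic osteoarthritis. Ages were not given in the sources used here. There were 4 groups of 3 libraries each. Uninvolved is the group labelled as uninvolved knees, without a statement of which rats they came from. Saline, Lipo and Lipo-CGS were injured knees injected with 100 µl of saline, of empty liposomes or of liposomes carrying CGS21680, an agonist of the adenosine receptor A2AR, every 10 days for 8 weeks from 4 weeks after injury. The cartilage of 3 rats was combined per library, and the methods for the injury model give 5 to 6 rats per group in total. A group of 3 such libraries would need more rats than that if none were shared. Whether the libraries of a group share rats, or other rats were used, is not stated. The p-values measure the spread between libraries that may not be separate animals. The cells were released by enzymes and cultured before RNA was taken, so the levels are those of cultured chondrocytes.

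A sulfated glycosaminoglycan is started on a serine of a core protein by xylose, to which galactose residues and glucuronic acid are added to complete the linker. The next sugar decides the chain: N-acetylgalactosamine opens a chondroitin sulfate chain and N-acetylglucosamine a heparan sulfate chain. Sulfotransferases in the Golgi then place sulfate from the donor PAPS at set positions. In cartilage the chondroitin sulfate of aggrecan holds water in the matrix, and heparan sulfate binds growth factors at the cell surface.

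Values were deposited as FPKM, reads scaled to gene length and library size, so levels can be set side by side between genes. Replicates are given in the order 1, 2 and 3, and means are given ± SD over 3 libraries. Differences are on the scale of log2(FPKM + 0.5) and were tested with limma in a single fit of 12 libraries. A gene passed at an adjusted p under 0.05, adjusted over the 11373 genes that reached 1 FPKM in 3 or more libraries. Of the 44 genes 40 could be tested, and 39 of these had at least 1 FPKM in every library, the exception being Chst15. In these bulk samples fewer cells of a type and less RNA per cell cannot be told apart.

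The 4 genes that could not be tested were at or near 0 in every group. Impad1, a phosphatase that clears the by-product of sulfation, was listed at 0 in all 12 libraries. Its row carries an older symbol, and whether its reads were counted elsewhere was not tested. Chst13, a chondroitin 4-O-sulfotransferase, was at 0.03 FPKM in a single library and at 0 in the others. Chst7, a chondroitin 6-O-sulfotransferase, reached at most 0.06 FPKM, and Ndst2, an N-deacetylase and N-sulfotransferase of heparan sulfate, at most 0.13 FPKM. The enzymes left to place these sulfates were Chst11, Chst12, Chst3 and Ndst1, all expressed in all libraries.

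Over all tested genes, Uninvolved replicate 3 lay furthest from its own group on the scale described next. On a line from the Uninvolved to the Lipo mean, with 0 at the first and 1 at the last, Uninvolved replicate 3 lay at 0.385 and the other Uninvolved libraries at -0.204 and -0.0844. The Saline libraries lay at 0.169 to 0.204, the Lipo libraries at 0.828 to 1.06 and the Lipo-CGS libraries at 0.796 to 0.826. No other library than Uninvolved replicate 3 was left out for its place on this scale. By median correlation with its own group it was not the lowest, at 0.9813 beside 0.9786 for Saline replicate 3 and 0.9803 for Lipo replicate 1. The value without Uninvolved replicate 3 is given as well where leaving it out changed a call against Uninvolved. It is also given where a difference moved by more than 1.5 times and by over 0.1. Uninvolved replicate 3 lay toward Lipo, so leaving it out tends to widen the differences of Lipo and Lipo-CGS from Uninvolved. Calls kept or gained without it are given as description and not as support.

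In Lipo, 16 of the 40 tested genes rose over Uninvolved and 2 fell, whereas 26.5% of all tested genes rose and 28.9% fell. The median log2 difference of the 40 genes was 0.21 and that of all tested genes -0.01. In Lipo-CGS, 16 rose and 2 fell against Uninvolved, beside 23.6% and 26.1% of all tested genes. Without Uninvolved replicate 3 the counts were 18 and 3 in Lipo, beside 27.9% and 30.4% of all tested genes. In Lipo-CGS they were 16 and 4, beside 26.8% and 28.8%. With a fold change over 1.5 required as well, 9 genes rose and 0 fell in Lipo, beside 14.1% and 16.3% of all tested genes. These 9 were Slc26a2, Xylt1, Chpf2, Chst15, Ust, Extl3, Ndst1, Sulf1 and Sulf2. The libraries of Lipo did not overlap those of Uninvolved for 15 higher and 3 lower genes, beside 28.1% and 30.6% of all tested genes. In Lipo-CGS the fold change left 10 higher and 1 lower, beside 11.7% and 14% of all tested genes. Both comparisons share the Uninvolved libraries. By step, rises in Lipo were counted in 1 of 8 precursor genes, 2 of 6 linker genes, 3 of 6 chondroitin chain genes, 4 of 8 chondroitin sulfation genes, 2 of 5 heparan chain genes and 4 of 7 heparan modification genes. Both falls were in the linker.

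**Figure D1:**
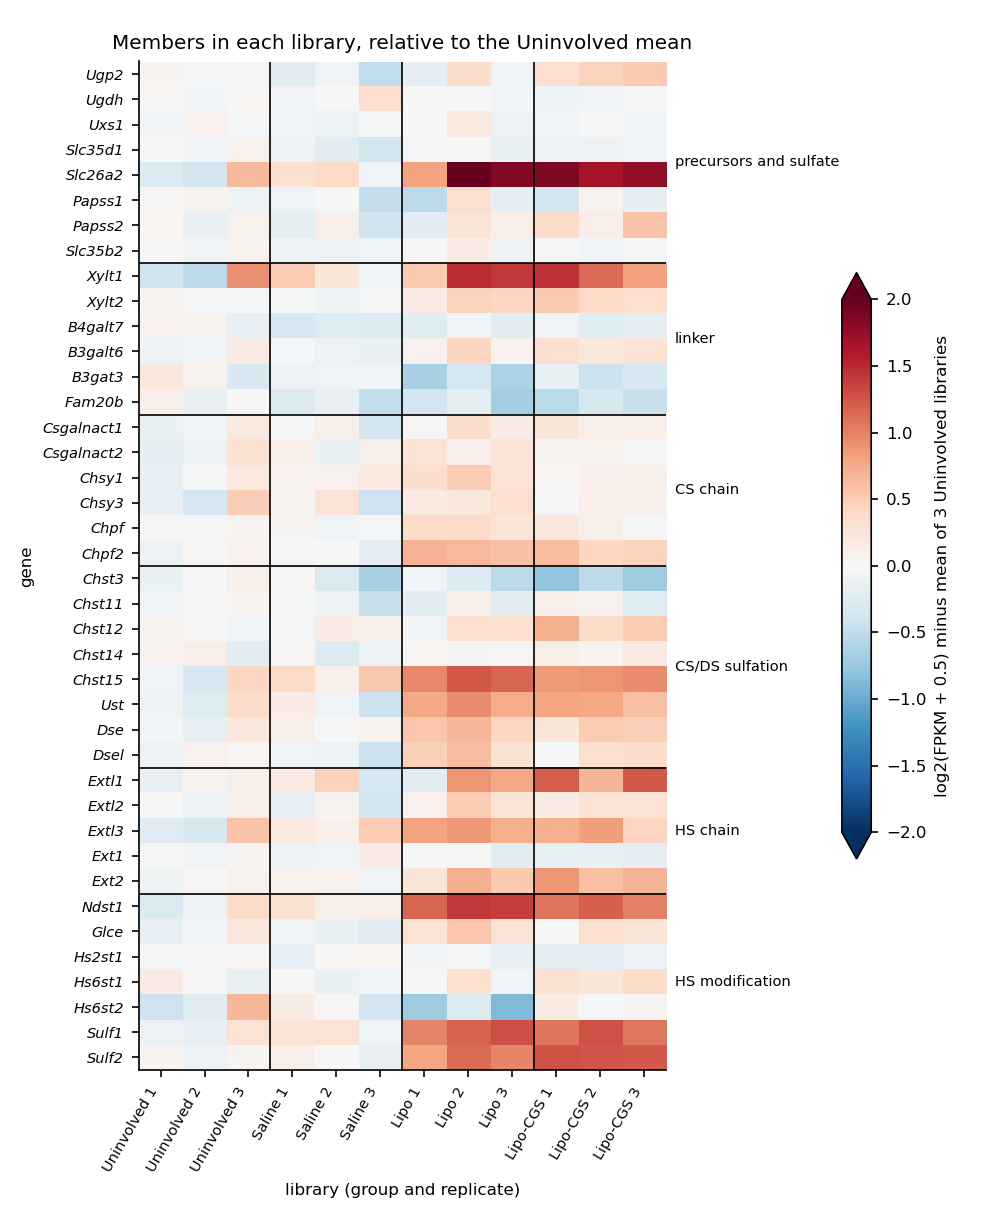
Level of each of the 40 tested genes in each of the 12 libraries, as log2(FPKM + 0.5) minus the mean of the 3 Uninvolved libraries, with color from -2 to 2 and the genes ordered by step. Lipo and Lipo-CGS libraries are red for Slc26a2, Chst15, Ust, Ndst1, Sulf1 and Sulf2, and Uninvolved replicate 3 is redder than the other Uninvolved libraries for Slc26a2, Xylt1 and Extl3.

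Promoter sequences are shown for genes of 4 steps, so that the motifs counted below can be read. They were chosen after the values were seen, as the gene with the smallest adjusted p of its step in Lipo against Uninvolved among those that could be shown. Each runs 5′ to 3′ over 300 bases that end shortly after the start of the gene, from RefSeq on the build GRCr8. Capitals mark TGACG or its reverse complement CGTCA, the core of the site bound by cAMP response element binding proteins, which act downstream of receptors such as A2AR that raise cAMP. The Sulf2 window is chr3:175323602-175323901 on the minus strand, that of Chpf2 chr4:11478321-11478620 on the minus strand, that of Chst15 chr1:196491134-196491433 on the minus strand and that of B3gat3 chr1:215246232-215246531 on the plus strand.
Sulf2: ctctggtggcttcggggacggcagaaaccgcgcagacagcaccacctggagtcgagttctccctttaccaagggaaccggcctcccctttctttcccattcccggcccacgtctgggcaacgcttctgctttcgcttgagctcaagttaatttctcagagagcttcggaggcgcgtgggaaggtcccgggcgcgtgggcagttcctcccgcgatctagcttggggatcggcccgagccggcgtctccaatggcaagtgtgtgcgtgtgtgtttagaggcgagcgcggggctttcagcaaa
Chpf2: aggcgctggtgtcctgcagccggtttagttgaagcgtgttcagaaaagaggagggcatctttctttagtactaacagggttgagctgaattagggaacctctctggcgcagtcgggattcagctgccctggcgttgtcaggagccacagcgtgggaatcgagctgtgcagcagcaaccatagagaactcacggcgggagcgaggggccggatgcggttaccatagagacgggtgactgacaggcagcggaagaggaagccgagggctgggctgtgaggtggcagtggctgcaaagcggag
Chst15: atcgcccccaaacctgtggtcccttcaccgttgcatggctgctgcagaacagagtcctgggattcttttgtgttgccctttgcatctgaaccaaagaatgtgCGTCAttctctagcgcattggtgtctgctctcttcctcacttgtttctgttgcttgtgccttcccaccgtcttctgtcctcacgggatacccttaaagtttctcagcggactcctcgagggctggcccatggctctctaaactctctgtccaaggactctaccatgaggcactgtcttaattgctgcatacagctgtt
B3gat3: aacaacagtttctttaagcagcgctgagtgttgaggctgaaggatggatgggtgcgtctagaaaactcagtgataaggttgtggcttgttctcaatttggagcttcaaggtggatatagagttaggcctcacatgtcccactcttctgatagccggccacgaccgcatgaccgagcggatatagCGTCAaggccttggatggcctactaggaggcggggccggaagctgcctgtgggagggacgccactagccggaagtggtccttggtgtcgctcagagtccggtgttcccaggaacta

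Chst15 and B3gat3 hold this core 1 time each, and Sulf2 and Chpf2 hold none in their windows. Of the 44 genes 35 had a promoter in the table, and the core was found on either strand in 10 of these 35, against 21.2% of 33469 promoters of the same length. The full palindrome TGACGTCA, which contains the core on both strands, was found in 1 of the 35 and in 1.83% of all promoters. GGGCGG or CCGCCC, the GC box, was found in 21 of the 35 and in 33.1% of all. The E-box CACGTG was found in 1 of the 35 and in 6.42% of all. Of the genes that rose in Lipo 13 had a promoter in the table, and 4 of them held the cAMP core and 8 the GC box. These matches describe letters in a window and were not tested as sites. The shares over all promoters cover 27457 genes, not only those that could be tested here. The 13 genes were called in Lipo against Uninvolved, a comparison without knees injected with CGS21680.

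Of the 7 tested enzymes that modify heparan sulfate, 4 rose in Lipo and 4 in Lipo-CGS against Uninvolved, and 0 fell. Of all tested genes 26.5% rose and 28.9% fell in Lipo, and 23.6% rose and 26.1% fell in Lipo-CGS. Sulf1 and Sulf2, the extracellular sulfatases that remove 6-O-sulfates from heparan sulfate, and Ndst1, the enzyme of the first modification step, were higher in both liposome groups than in Uninvolved. Sulf2 was at 66.9, 59.1 and 66.6 FPKM in the Uninvolved libraries, 69.95, 64.1 and 58.1 in Saline, 111, 141 and 127 in Lipo and 156, 155 and 151 in Lipo-CGS. All liposome libraries exceeded 110 FPKM and no Uninvolved or Saline library reached 70 FPKM, so the groups did not overlap. Sulf2 rose by a log2 difference of 0.97 (SE 0.10, adjusted p = 9.68e-05) in Lipo and 1.25 (SE 0.10, adjusted p = 4.50e-05) in Lipo-CGS over Uninvolved. Sulf1 was at 16.4, 15.9 and 21.9 FPKM in the Uninvolved libraries, 21.4, 22.01 and 16.99 in Saline, 36.1, 41.2 and 44.3 in Lipo and 37.97, 43.8 and 37.7 in Lipo-CGS. Its lowest liposome library was above the highest Uninvolved and Saline libraries, with log2 differences from Uninvolved of 1.16 (SE 0.14, adjusted p = 1.45e-04) in Lipo and 1.13 (SE 0.14, adjusted p = 2.03e-04) in Lipo-CGS. Ndst1 was at 4.55, 5.31 and 7.63 FPKM in the Uninvolved libraries, 7.18, 6.21 and 6.33 in Saline, 13.4, 16.1 and 15.7 in Lipo and 12.5, 13.8 and 11.9 in Lipo-CGS. Here too the liposome libraries lay above all others, and Ndst1 rose by 1.32 (SE 0.15, adjusted p = 1.23e-04) in Lipo and 1.09 (SE 0.15, adjusted p = 3.72e-04) in Lipo-CGS. These calls held in every alternative fit, and against Saline as well.

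The other heparan modifying enzymes differed less. Glce, the epimerase that turns glucuronic into iduronic acid, rose by 0.38 (SE 0.13, adjusted p = 0.0238) in Lipo and had a difference of 0.18 (adjusted p = 0.242) in Lipo-CGS, or 0.30 (adjusted p = 0.0513) without Uninvolved replicate 3. The call of Glce in Lipo ended without Lipo replicate 2 (adjusted p = 0.0915), without Uninvolved replicate 1 (0.0969) or 2 (0.0787), and with only the 2 groups fitted (0.0569). Hs2st1, the 2-O-sulfotransferase, measured 13.4 to 15.8 FPKM in all libraries, with differences of -0.08 (adjusted p = 0.399) and -0.16 (adjusted p = 0.120). The 6-O-sulfotransferase Hs6st1 had a difference of 0.09 (adjusted p = 0.509) in Lipo and rose by 0.30 (adjusted p = 0.0384) in Lipo-CGS. That call of Hs6st1 ended in 8 alternatives, among them the fits without any 1 of the Lipo-CGS libraries (adjusted p up to 0.113) and without Uninvolved replicate 2 (0.0920) or 3 (0.107), and with the replicate block (0.0569). Hs6st2, which does the same reaction, measured 3.91, 4.47 and 8.86 FPKM in the Uninvolved libraries, 6.04, 5.5 and 4.02 in Saline, 3.12, 4.4 and 2.7 in Lipo and 6.01, 5.21 and 5.64 in Lipo-CGS. The Uninvolved range of Hs6st2 ran up to replicate 3, the highest of all 12 libraries, and its differences from Uninvolved were -0.62 (adjusted p = 0.0589) in Lipo and 0.05 (adjusted p = 0.883) in Lipo-CGS. Without that library they were -0.28 (adjusted p = 0.227) and 0.38 (adjusted p = 0.114).

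**Figure D2:**
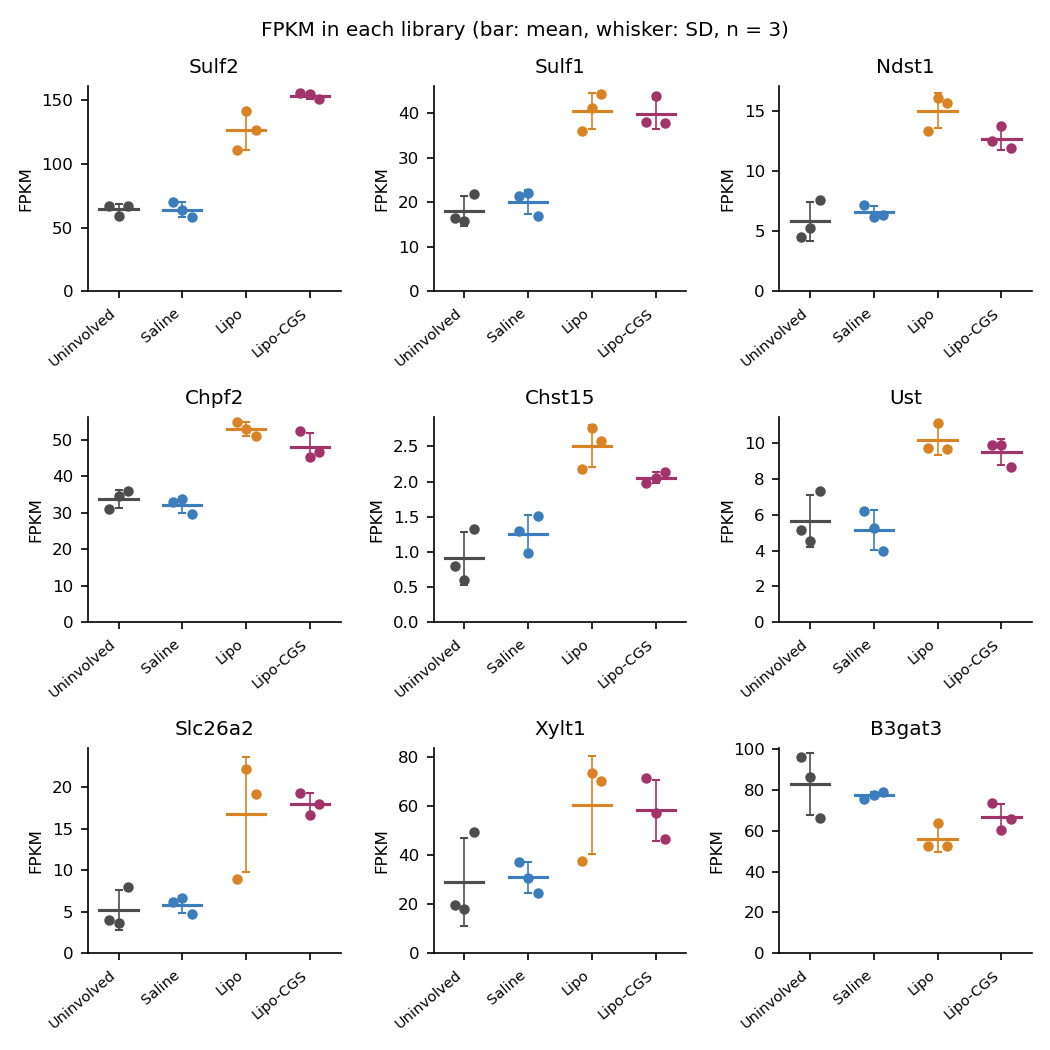
FPKM of 9 genes in each library, with the bar at the mean and the whisker at 1 SD of 3 libraries, on axes that start at 0. For Sulf2, Sulf1, Ndst1, Chpf2, Chst15 and Ust every Lipo and Lipo-CGS library is above every Uninvolved and Saline library, whereas for Xylt1 Uninvolved replicate 3 is within the range of Lipo, and B3gat3 is lowest in Lipo.

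Of the enzymes that extend the heparan sulfate chain, Ext2 rose in both liposome groups and its partner Ext1 did not pass. Ext2 was at 85.8, 93.7 and 98.01 FPKM in the Uninvolved libraries, 97.8, 97.8 and 88.6 in Saline, 109.7, 153 and 133 in Lipo and 171, 140.3 and 148 in Lipo-CGS. Each liposome library exceeded each Uninvolved and Saline library, and Ext2 rose by 0.50 (SE 0.12, adjusted p = 0.00535) in Lipo and 0.72 (SE 0.12, adjusted p = 9.28e-04) in Lipo-CGS. Ext1, with which Ext2 forms the copolymerase, measured 10.8 to 14.1 FPKM in all libraries, with differences of -0.06 (adjusted p = 0.588) and -0.16 (adjusted p = 0.175). Extl3, which adds the N-acetylglucosamine that opens a heparan sulfate chain, was at 14.1, 13.6 and 25.5 FPKM in the Uninvolved libraries, 19.4, 18.2 and 24.3 in Saline, 30.2, 31.3 and 28.3 in Lipo and 27.96, 30.6 and 23.1 in Lipo-CGS. Uninvolved replicate 3 of Extl3 lay above 1 Lipo-CGS library, and the other Uninvolved libraries lay well below all liposome libraries. Extl3 rose by 0.80 (SE 0.21, adjusted p = 0.00681) in Lipo and 0.66 (SE 0.21, adjusted p = 0.0208) in Lipo-CGS, which became 0.94 without Uninvolved replicate 3 (adjusted p = 2.69e-04). The Lipo-CGS call of Extl3 ended when Lipo-CGS replicate 1 (adjusted p = 0.0592) or 2 (0.0741) or Uninvolved replicate 1 (0.0876) or 2 (0.0913) was left out, and with only the 2 groups fitted (0.0521).

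Extl2, which can add a sugar to a phosphorylated linker and so stop a chain, was at 7.69, 7.04 and 8.42 FPKM in the Uninvolved libraries, 6.8, 7.97 and 5.78 in Saline, 8.24, 11.2 and 9.3 in Lipo and 8.55, 9.51 and 9.51 in Lipo-CGS. The Lipo libraries of Extl2 overlapped Uninvolved, and its difference of 0.29 (SE 0.13, adjusted p = 0.0831) did not pass. Without Lipo replicate 1, the lowest of the 3, it passed (log2 difference 0.38, adjusted p = 0.0374). Extl1, an N-acetylglucosaminyltransferase of chain elongation, was at 2.75, 3.27 and 3.44 FPKM in the Uninvolved libraries, 3.62, 4.52 and 2.34 in Saline, 2.64, 6.2 and 5.74 in Lipo and 7.93, 5.31 and 8.05 in Lipo-CGS. Extl1 rose in Lipo-CGS by 1.04 (SE 0.29, adjusted p = 0.0109), and in Lipo its difference was 0.48 (SE 0.29, adjusted p = 0.171), with Lipo replicate 1 below all Uninvolved libraries.

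Among the enzymes that extend chondroitin sulfate, Chpf2 was higher by the largest amount, and all 6 fitted differences were above 0 in both liposome groups. Of all 11373 tested genes 5628 were above 0 in Lipo and 5756 in Lipo-CGS. Chpf2, a polymerizing factor that works with the chondroitin synthases, was at 31.1, 34.5 and 35.97 FPKM in the Uninvolved libraries, 33.05, 33.7 and 29.8 in Saline, 54.96, 53.02 and 51.04 in Lipo and 52.4, 45.4 and 46.5 in Lipo-CGS. No liposome library overlapped Uninvolved or Saline, and Chpf2 rose by 0.64 (SE 0.09, adjusted p = 2.25e-04) in Lipo and 0.50 (SE 0.09, adjusted p = 0.00108) in Lipo-CGS. Chpf, the related polymerizing factor, was at 60.8, 59.8 and 63.4 FPKM in the Uninvolved libraries, 63.7, 57.5 and 59.5 in Saline, 79.1, 78.9 and 73.2 in Lipo and 72.04, 66.5 and 61.2 in Lipo-CGS. Its Lipo libraries lay above all Uninvolved and Saline libraries, whereas its Lipo-CGS libraries began at 61.2 FPKM, within the Uninvolved range. Chpf rose by 0.33 (SE 0.08, adjusted p = 0.00570) in Lipo and differed by 0.12 (SE 0.08, adjusted p = 0.259) in Lipo-CGS. Chsy1, a chondroitin synthase, was at 13.6, 14.8 and 17.6 FPKM in the Uninvolved libraries, 16.1, 16.1 and 17.5 in Saline, 19.7, 21.8 and 18.6 in Lipo and 15.7, 16.3 and 16.6 in Lipo-CGS. The 3 Lipo libraries of Chsy1 were above all libraries of the other groups, with a rise of 0.38 (SE 0.10, adjusted p = 0.00672) over Uninvolved, and the difference in Lipo-CGS was 0.09 (SE 0.10, adjusted p = 0.485), or 0.19 (adjusted p = 0.0852) without Uninvolved replicate 3.

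The other 3 genes of this step did not pass with all libraries. Chsy3, the second synthase, ranged from 7.31 to 14.2 FPKM, and its highest library was Uninvolved replicate 3. Its differences from Uninvolved were 0.25 (adjusted p = 0.324) in Lipo and 0.07 (adjusted p = 0.789) in Lipo-CGS. Without that library they were 0.50 (adjusted p = 0.0251), which passed, and 0.32 (adjusted p = 0.125). Csgalnact1 and Csgalnact2 add the first N-acetylgalactosamine and so open the chain. Csgalnact1 ranged from 50.9 to 84.7 FPKM, with differences of 0.17 (adjusted p = 0.295) and 0.17 (adjusted p = 0.325). Csgalnact2 ranged from 8.62 to 12.45 FPKM, with differences of 0.21 (adjusted p = 0.179) and 0.03 (adjusted p = 0.861). Without Uninvolved replicate 3 these were 0.37 (adjusted p = 0.00916), which passed, and 0.19 (adjusted p = 0.140).

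The enzymes of chondroitin and dermatan sulfate modification that rose in both liposome groups were Chst15, Ust and Dse. Chst15 makes the doubly sulfated E unit by adding a 6-O-sulfate to 4-sulfated N-acetylgalactosamine, and was at 0.800, 0.600 and 1.33 FPKM in the Uninvolved libraries, 1.29, 0.980 and 1.51 in Saline, 2.18, 2.76 and 2.58 in Lipo and 1.98, 2.05 and 2.14 in Lipo-CGS. All liposome libraries of Chst15 were above all others, at the lowest level of any tested member. Chst15 rose by 1.12 (SE 0.19, adjusted p = 5.52e-04) in Lipo and 0.89 (SE 0.19, adjusted p = 0.00262) in Lipo-CGS, where a pseudocount of 0.5 is a large part of each value. Ust, the uronyl 2-O-sulfotransferase, was at 5.13, 4.53 and 7.3 FPKM in the Uninvolved libraries, 6.2, 5.25 and 3.97 in Saline, 9.71, 11.1 and 9.65 in Lipo and 9.91, 9.86 and 8.63 in Lipo-CGS. The liposome libraries began at 8.63 FPKM and the others ended at 7.30 FPKM, with rises of 0.81 (SE 0.17, adjusted p = 0.00218) and 0.72 (SE 0.17, adjusted p = 0.00553). Dse, an epimerase that turns chondroitin into dermatan sulfate, was at 20.7, 19.1 and 24.8 FPKM in the Uninvolved libraries, 23.2, 21.4 and 22.4 in Saline, 31.7, 34.2 and 29.1 in Lipo and 25.5, 30.8 and 29.9 in Lipo-CGS. Uninvolved replicate 3 of Dse came within 1 FPKM of the lowest liposome library without reaching it. Dse rose by 0.55 (SE 0.11, adjusted p = 0.00151) in Lipo and 0.41 (SE 0.11, adjusted p = 0.00937) in Lipo-CGS. Dsel, the second epimerase, rose in Lipo by 0.47 (SE 0.14, adjusted p = 0.0135) and differed by 0.21 (adjusted p = 0.226) in Lipo-CGS. The Lipo call of Dsel ended without Lipo replicate 2 (adjusted p = 0.0506) or Uninvolved replicate 1 (0.0549).

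Chst12 and Chst3 passed against Uninvolved in Lipo-CGS and did not pass in Lipo, and the difference of Lipo-CGS from Lipo did not pass for either. Chst12, a 4-O-sulfotransferase, was at 55.6, 53.2 and 50.4 FPKM in the Uninvolved libraries, 52.2, 58.8 and 56.9 in Saline, 50.98, 67.1 and 66.4 in Lipo and 88.5, 68.5 and 75.99 in Lipo-CGS. It rose by 0.54 (SE 0.12, adjusted p = 0.00406) in Lipo-CGS and differed by 0.20 (SE 0.12, adjusted p = 0.179) in Lipo, where replicate 1 lay among the Uninvolved libraries. Chst3, the 6-O-sulfotransferase, went from 8.92 ± 0.831 FPKM in Uninvolved to 5.39 ± 0.560 in Lipo-CGS. This was a fall by a log2 difference of -0.68 (SE 0.17, adjusted p = 0.00662), and Chst3 differed by -0.29 (adjusted p = 0.161) in Lipo. In Saline it was at 7.26 ± 1.78 FPKM, and Chst3 did not pass in Lipo-CGS against Saline. Chst11, the other 4-O-sulfotransferase, ranged from 21.8 to 31.97 FPKM with differences of -0.11 (adjusted p = 0.520) and -0.03 (adjusted p = 0.883). Chst14, the 4-O-sulfotransferase of dermatan sulfate, ranged from 18.65 to 25.6 FPKM with differences of 0.04 (adjusted p = 0.784) and 0.12 (adjusted p = 0.344), or -0.07 (adjusted p = 0.495) and 0.01 (adjusted p = 0.913) without Uninvolved replicate 3.

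The linker genes moved in both directions. Xylt1 and Xylt2 are the xylosyltransferases that start every chain. Xylt2 was at 12.3, 11.6 and 11.6 FPKM in the Uninvolved libraries, 11.7, 11.03 and 11.5 in Saline, 13.3, 16.3 and 15.8 in Lipo and 17.3, 15.6 and 15.01 in Lipo-CGS, with every liposome library above every other, and rose by 0.34 (SE 0.09, adjusted p = 0.00803) in Lipo and 0.42 (SE 0.09, adjusted p = 0.00332) in Lipo-CGS. Xylt1 was at 19.6, 17.9 and 49.6 FPKM in the Uninvolved libraries, 37.3, 30.9 and 24.5 in Saline, 37.5, 73.5 and 70.01 in Lipo and 71.2, 57.2 and 46.5 in Lipo-CGS. Its Uninvolved replicate 3 was above a Lipo and a Lipo-CGS library, and the groups overlapped. Xylt1 rose by 1.14 (SE 0.36, adjusted p = 0.0191) in Lipo and 1.13 (SE 0.36, adjusted p = 0.0222) in Lipo-CGS, and by 1.60 in Lipo without Uninvolved replicate 3 (adjusted p = 6.80e-04). The Lipo call of Xylt1 ended without Lipo replicate 2 (adjusted p = 0.0687) or 3 (0.0701) or Uninvolved replicate 1 (0.0781) or 2 (0.0842). That in Lipo-CGS ended when replicate 1 or 2 of either group was left out (adjusted p up to 0.0952).

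B3gat3, the glucuronyltransferase that completes the linker, was at 96.3, 86.4 and 66.3 FPKM in the Uninvolved libraries, 75.9, 77.8 and 78.9 in Saline, 52.4, 63.9 and 52.4 in Lipo and 73.6, 60.6 and 65.8 in Lipo-CGS. Every Lipo library was below every Uninvolved library, although Uninvolved replicate 3 and Lipo replicate 2 were within 3 FPKM of each other. B3gat3 fell in Lipo, with -0.55 (SE 0.13, adjusted p = 0.00508), and differed by -0.30 (SE 0.13, adjusted p = 0.0806) in Lipo-CGS, where it passed without Uninvolved replicate 3 (-0.45, adjusted p = 0.00541). Fam20b, the kinase that phosphorylates the linker xylose, fell from 26.6 ± 2.604 FPKM in Uninvolved to 19.9 ± 3.397 in Lipo and 19.5 ± 1.53 in Lipo-CGS. These are log2 differences of -0.41 (SE 0.13, adjusted p = 0.0204) and -0.43 (SE 0.13, adjusted p = 0.0185). The Lipo call of Fam20b ended without Lipo replicate 3 (adjusted p = 0.0892) or Uninvolved replicate 1 (0.0790), and the Lipo-CGS call without Lipo-CGS replicate 1 (0.0676) or Uninvolved replicate 1 (0.0731). The galactosyltransferases B4galt7 and B3galt6 add the sugars between. B4galt7 ranged from 32.8 to 43.9 FPKM and had differences of -0.18 (adjusted p = 0.0962) and -0.17 (adjusted p = 0.127). Both passed without Uninvolved replicate 3, at -0.26 (adjusted p = 0.0142) and -0.25 (adjusted p = 0.0194). B3galt6 ranged from 6.47 to 9.84 FPKM and had differences of 0.20 (adjusted p = 0.144) and 0.27 (adjusted p = 0.0585), and the latter passed without Uninvolved replicate 3 (0.35, adjusted p = 0.0215).

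Most precursor and sulfate genes did not pass, with the exception of Slc26a2 and, in Lipo-CGS, Ugp2. Slc26a2, the sulfate transporter of the cell membrane, whose loss causes chondrodysplasia in humans, was at 3.96, 3.7 and 7.94 FPKM in the Uninvolved libraries, 6.19, 6.66 and 4.72 in Saline, 8.96, 22.2 and 19.1 in Lipo and 19.3, 16.6 and 17.97 in Lipo-CGS. Lipo replicate 1 was close to Uninvolved replicate 3, and the other liposome libraries were at more than 16 FPKM. Slc26a2 rose by 1.58 (SE 0.32, adjusted p = 0.00161) in Lipo and 1.77 (SE 0.32, adjusted p = 0.00120) in Lipo-CGS, and the Lipo difference ran from 1.33 to 1.96 over the alternatives. The highest of these was reached without Lipo replicate 1. Slc35d1, which carries nucleotide sugars into the endoplasmic reticulum, was at 14.9, 14.1 and 15.8 FPKM in the Uninvolved libraries, 13.8, 12.8 and 11.5 in Saline, 14.5, 15.04 and 13.5 in Lipo and 13.9, 13.7 and 14.3 in Lipo-CGS. Its 4 groups lay within 5 FPKM, with a difference of -0.06 (SE 0.09, adjusted p = 0.598) in Lipo. Papss1, a synthase of the sulfate donor PAPS, was at 82.7, 85.5 and 75.7 FPKM in the Uninvolved libraries, 76.1, 81.1 and 58.4 in Saline, 56.2, 103 and 70.6 in Lipo and 63.05, 85.6 and 71.2 in Lipo-CGS. Papss1 ranged from 56.2 to 103 FPKM within Lipo alone, and its difference of -0.13 (SE 0.20, adjusted p = 0.608) turned to 0.07 without Lipo replicate 1.

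Papss2, the other PAPS synthase and the main one of cartilage, was at 103 ± 8.06 FPKM in Uninvolved, 93.6 ± 17.1 in Saline, 108 ± 17.4 in Lipo and 134 ± 20.4 in Lipo-CGS. Its differences from Uninvolved of 0.05 (adjusted p = 0.797) and 0.36 (adjusted p = 0.0780) did not pass. Ugp2, which makes UDP-glucose, rose in Lipo-CGS by 0.44 (SE 0.14, adjusted p = 0.0222), a call that ended without Lipo-CGS replicate 2 (adjusted p = 0.0603) or 3 (0.0732) or Uninvolved replicate 2 (0.0638). The steps after it, by Ugdh to UDP-glucuronic acid and by Uxs1 to UDP-xylose, were at 40.8 to 55.5 and 52.9 to 64.8 FPKM over all libraries. Differences of Ugdh were -0.02 (adjusted p = 0.903) and -0.06 (adjusted p = 0.604), and those of Uxs1 0.01 (adjusted p = 0.904) and -0.04 (adjusted p = 0.682). Slc35b2, which carries PAPS into the Golgi, ranged from 57.4 to 68.3 FPKM, with differences of 0.01 (adjusted p = 0.915) and -0.02 (adjusted p = 0.885).

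**Figure D3:**
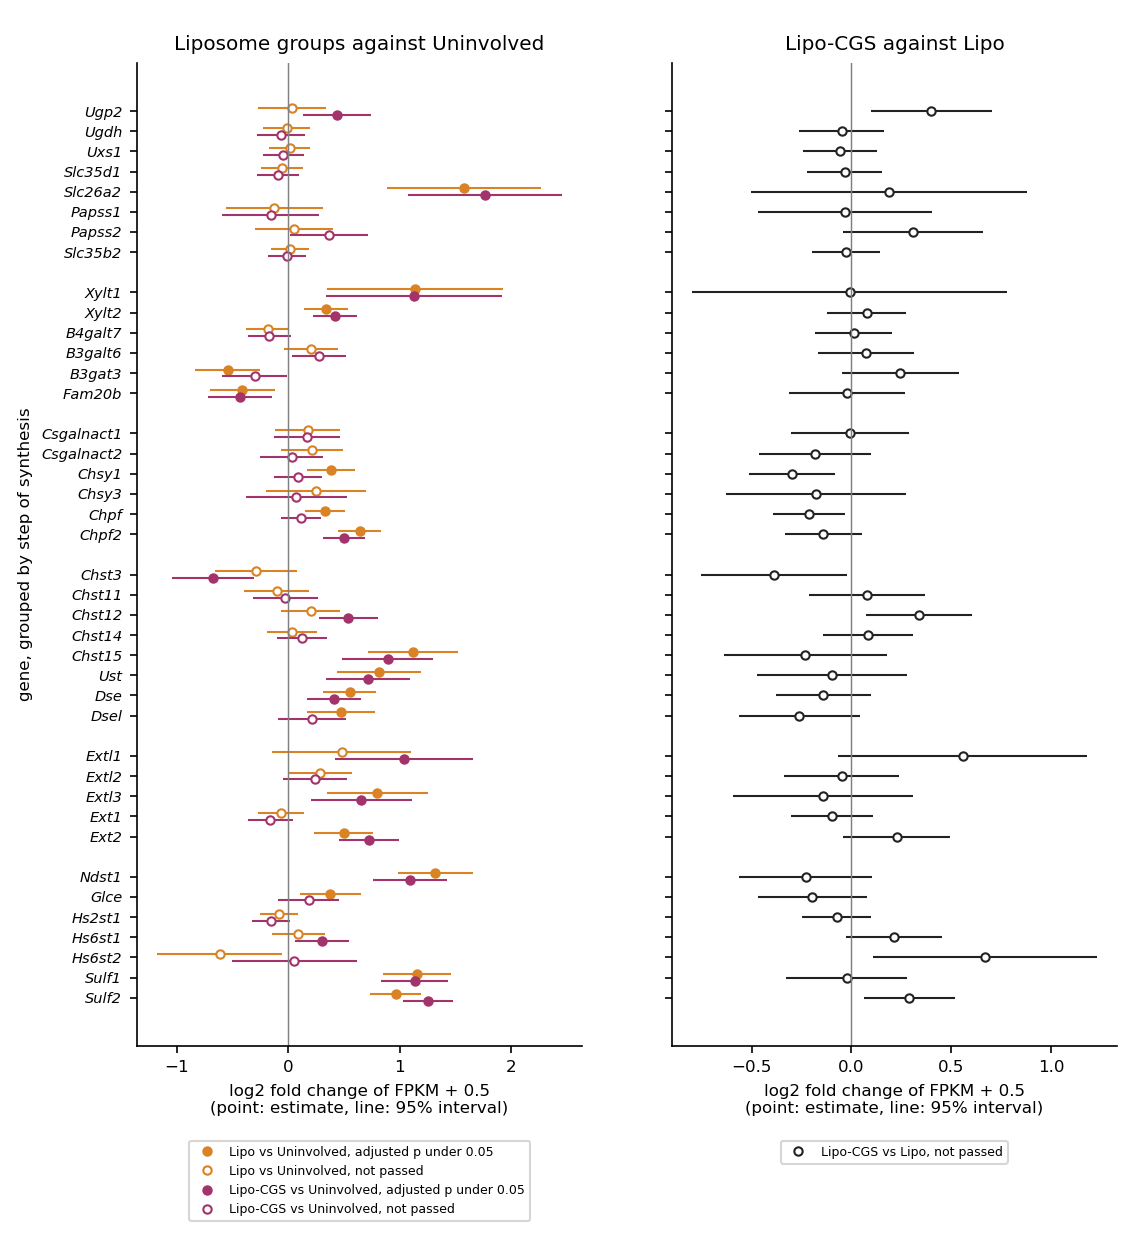
Log2 fold change of FPKM + 0.5 with its 95% interval for each of the 40 tested genes, grouped by step, for Lipo and Lipo-CGS against Uninvolved on the left and Lipo-CGS against Lipo on the right. Filled points have an adjusted p under 0.05 from limma. On the left 16 genes rose and 2 fell in each comparison, and on the right no point is filled.

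Lipo-CGS against Lipo asks what the agonist adds to the liposome, and 0 of the 40 genes passed in either direction by limma. Of all tested genes 0.0791% rose and 0.0879% fell. These shares became 1.06% and 0.608% without Uninvolved replicate 3 and 0.467% and 0.556% without Saline replicate 3. At an unadjusted p under 0.05, 4 genes were higher and 3 were lower, beside 9.54% and 8.81% of all tested genes. The libraries did not overlap for 4 higher and 5 lower genes, beside 14.7% and 13.1%. The median log2 difference of the 40 was -0.03 and that of all tested genes 0.00355. The fitted differences ran from -0.39 to 0.67. The 6 genes with the smallest adjusted p are given next, as values that did not pass.

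Chsy1 had a difference of -0.30 (95% interval -0.51 to -0.08, adjusted p = 0.154), with each Lipo-CGS library below each Lipo library. Chpf, its polymerizing factor, had -0.21 (95% interval -0.39 to -0.03, adjusted p = 0.203), again without overlap. All 6 genes of chondroitin chain elongation had fitted differences below 0, with a median of -0.18, and none passed. These 6 were measured in the same libraries and are not replicates. Of all 11373 tested genes 5782 had fitted differences above 0. Chst12 had 0.34 (95% interval 0.07 to 0.60, adjusted p = 0.180) and Sulf2 had 0.29 (95% interval 0.06 to 0.52, adjusted p = 0.179), both with all Lipo-CGS libraries above all Lipo libraries. Hs6st2 had 0.67 (95% interval 0.11 to 1.23, adjusted p = 0.202), likewise without overlap. Ugp2 was at 97.2, 91.4 and 90.9 FPKM in the Uninvolved libraries, 80.8, 87.4 and 65.8 in Saline, 81.95, 119 and 89.4 in Lipo and 117, 129 and 133 in Lipo-CGS, and had 0.40 (95% interval 0.10 to 0.70, adjusted p = 0.168) with Lipo replicate 2 above 1 Lipo-CGS library. The intervals are not adjusted for the number of genes. The counts stayed at 0 in every alternative, also without Uninvolved replicate 3 or Saline replicate 3.

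Saline against Uninvolved asks what the injury with vehicle alone left, and 0 of the 40 genes passed in either direction by limma, beside 0% of all tested genes. At an unadjusted p under 0.05, 0 were higher and 3 were lower, beside 2.3% and 2.67% of all tested genes. The 3 lower were B4galt7 with -0.29 (adjusted p = 0.809), Slc35d1 with -0.23 (adjusted p = 0.809) and Fam20b with -0.30 (adjusted p = 0.809). The largest fitted rise was that of Chst15, 0.34 (adjusted p = 0.809). Lipo knees were both injured and given liposomes, so injury and liposome cannot be told apart in Lipo against Uninvolved.

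Lipo and Lipo-CGS were therefore also set against Saline, which they share as control. In Lipo 16 genes rose and 1, B3gat3, fell, beside 21.5% and 24.5% of all tested genes, and past a fold change of 1.5 there were 8 and 0, beside 10.6% and 12.3%. The largest rises were those of Slc26a2 with 1.36 (adjusted p = 0.00526), Ndst1 with 1.13 (adjusted p = 4.53e-04), Sulf1 with 1.00 (adjusted p = 5.26e-04), Sulf2 with 0.97 (adjusted p = 1.70e-04) and Ust with 0.93 (adjusted p = 0.00167). The others that rose were Chst15 (0.78), Chpf2 (0.71), Dsel (0.68), Glce (0.52), Dse (0.49), Ext2 (0.46), Extl2 (0.46), Xylt2 (0.39), Chpf (0.35), B3galt6 (0.30) and Chsy1 (0.26). B3gat3 had -0.47 (adjusted p = 0.0149), and lost its call without Lipo replicate 3 (adjusted p = 0.0541). Extl2 lost its call without Lipo replicate 2 or Saline replicate 3 (adjusted p up to 0.0609). The calls of B3galt6 and Chsy1 ended in 11 of 20 alternatives each, among them those without any 1 of the Lipo-CGS libraries (adjusted p up to 0.167 and 0.147). The 13 other calls held in every alternative fit.

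In Lipo-CGS 18 genes rose over Saline and 0 fell, beside 17.9% and 21.6% of all tested genes, and past a fold change of 1.5 there were 8 and 0, beside 8.23% and 10.3%. Of the 18, 9 held in every alternative fit: Slc26a2 (1.55), Sulf2 (1.26), Sulf1 (0.97), Ndst1 (0.90), Ust (0.84), Ugp2 (0.70), Ext2 (0.69), Chpf2 (0.57) and Xylt2 (0.47). The other 9 were Extl1 (0.94), Chst15 (0.55), Papss2 (0.51), Chst12 (0.46), Dsel (0.42), Extl2 (0.41), B3galt6 (0.37), Hs6st1 (0.37) and Dse (0.35). Each of these 9 calls ended in 1 to 6 alternatives, with an adjusted p up to 0.120, that of Dsel. Without Saline replicate 3 the count was 11, beside 12.7% of all tested genes, and without Lipo-CGS replicate 3 it was 10, beside 12.1%. Without Uninvolved replicate 3 it was 22, beside 21.4%. Chst12 lost its call without Lipo-CGS replicate 1 (adjusted p = 0.0520), and Chst15 lost it without any 1 of the Lipo-CGS libraries or Saline replicate 1 or 2 (adjusted p up to 0.117). In Saline replicate 3, many of the 18 were at their lowest level of the 3 Saline libraries. These were Slc26a2, Sulf1, Sulf2, Ust, Ext2, Chpf2, Dsel, Extl1, Extl2, B3galt6, Papss2 and Ugp2. Ndst1, Xylt2, Chst12, Chst15, Dse and Hs6st1 were not. Sulf1, Sulf2, Ndst1, Ext2, Chpf2, Ust, Xylt2 and Slc26a2 passed in all 4 comparisons of a liposome group with Uninvolved or Saline, which share libraries, and held in every alternative fit of each.

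**Figure D4:**
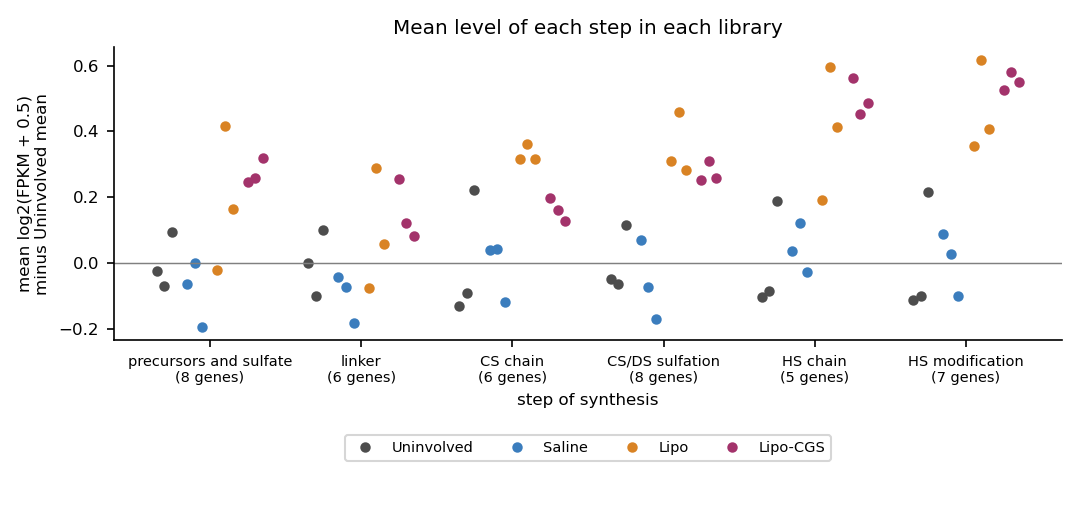
Mean of log2(FPKM + 0.5) minus the Uninvolved mean over the tested genes of each step, with 1 point per library and the 4 groups in color. For chondroitin sulfation the liposome libraries begin at 0.251 and the others end at 0.114, and for heparan sulfate modification the liposome libraries run from 0.355 to 0.616 and the Uninvolved and Saline libraries from -0.113 to 0.215.

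Averaged over each step, the liposome libraries lay above all Uninvolved and Saline libraries for heparan modification, heparan chain and chondroitin sulfation, and overlapped them for precursors, linker and chondroitin chain. For chondroitin sulfation they lay at 0.251 or more and the others at 0.114 or less, and for the heparan chain the gap was 0.190 against 0.189. The mean of the 7 heparan modifying genes lay at 0.355 to 0.616 above Uninvolved in Lipo, at 0.525 to 0.581 in Lipo-CGS, at -0.0995 to 0.087 in Saline and at -0.113 to 0.215 within Uninvolved, where 0.215 was replicate 3. These are descriptions of genes that include the ones tested above, and no test was run on them.

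Ratios within a library do not depend on its total, and 10 ratios of partner enzymes were formed after the values of the genes had been seen. The ratio of the sulfatases Sulf1 and Sulf2 to the sulfotransferases Hs6st1 and Hs6st2, which act on the same position, was 4.52 ± 0.138 in Uninvolved, 4.93 ± 0.212 in Saline, 10.1 ± 1.39 in Lipo and 9.20 ± 0.672 in Lipo-CGS. The liposome groups did not overlap the others. Saline did not overlap Uninvolved either, at 4.72 to 5.14 against 4.41 to 4.67. The ratio of Ext2 to Ext1 was 7.37 ± 0.569 in Uninvolved, 7.65 ± 1.18 in Saline, 11.01 ± 2.04 in Lipo and 13.7 ± 1.37 in Lipo-CGS. The ratio of the 4-O-sulfotransferases Chst11 and Chst12 to the 6-O-sulfotransferase Chst3 was 9.36 ± 1.04 in Uninvolved and 11.7 ± 2.66 in Saline. It was 12.7 ± 3.34 in Lipo, where it overlapped both, and 20.1 ± 3.94 in Lipo-CGS. The ratio of Chpf2 to Chpf was 0.552 ± 0.0354 in Uninvolved, 0.535 ± 0.0453 in Saline, 0.688 ± 0.0138 in Lipo and 0.723 ± 0.0398 in Lipo-CGS. The ratio of Xylt1 to Xylt2 overlapped between all groups. So did those of Papss2 to Papss1, Csgalnact1 to Csgalnact2 and Chsy1 to Chsy3. The ratio of Sulf2 to Sulf1 was without overlap only in Lipo-CGS against Lipo and against Saline. That of Dse to Dsel was without overlap only in Lipo against Saline. Exact two-sided permutation tests of 3 libraries against 3 cannot go below p = 0.1, and over the 60 tests made the lowest adjusted p was 0.3.

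**Figure D5:**
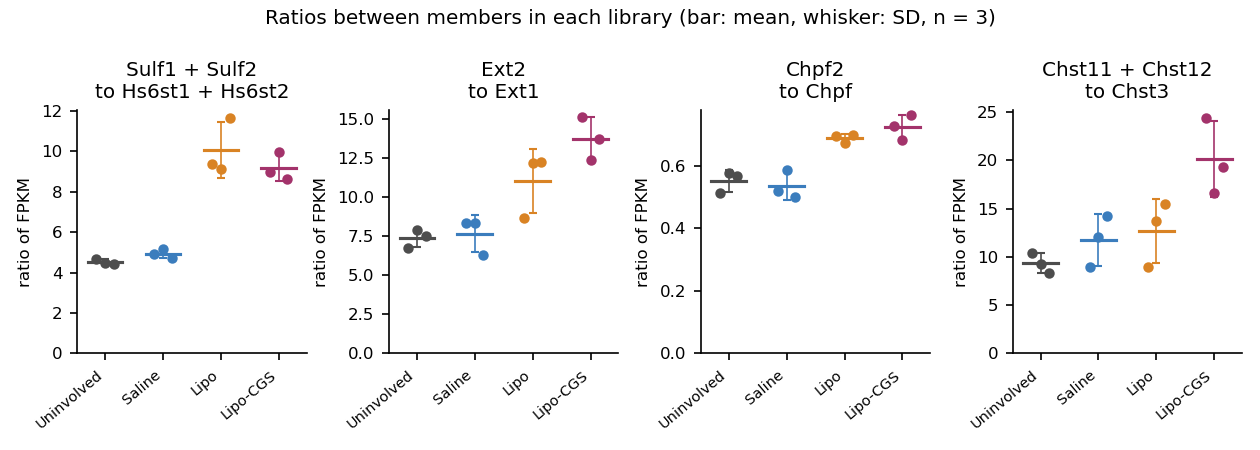
Ratio of FPKM between partner enzymes in each library, with the bar at the mean and the whisker at 1 SD of 3 libraries, on axes from 0. The ratio of Sulf1 and Sulf2 to Hs6st1 and Hs6st2 is near 4.52 and 4.93 in Uninvolved and Saline and near 10.1 and 9.20 in Lipo and Lipo-CGS.

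Genes next to these in the pathway were counted from lists chosen with earlier results of these data known, with the 2 of smallest adjusted p in Lipo against Uninvolved named. The shares of all tested genes, 26.5% higher and 28.9% lower in Lipo, apply beside each of these counts. Among other enzymes of heparan sulfate, 4 could be tested and 1 fell, Hs3st1, a 3-O-sulfotransferase, with -0.71 (adjusted p = 0.0356). Hs3st3a1 had -0.40 (adjusted p = 0.129). Of 17 other enzymes of sugar precursors, 4 rose and 5 fell in Lipo, near the shares of all tested genes. Uap1, which makes UDP-N-acetylglucosamine, went from 46.9 ± 7.004 FPKM in Uninvolved to 23.2 ± 2.68 in Lipo, -0.99 (adjusted p = 1.58e-04).

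Of 10 core proteins that carry chondroitin or dermatan sulfate, 5 rose and 2 fell in Lipo, beside 26.5% and 28.9% of all tested genes, led by Vcan, a large matrix proteoglycan, at 1.24 (adjusted p = 1.04e-04), and Bgn, a small one, at 0.88 (adjusted p = 4.65e-04). Vcan was the only gene on these neighboring lists that passed in Lipo-CGS against Lipo, falling from 30.3 ± 3.04 to 14.5 ± 3.42 FPKM, -1.06 (adjusted p = 0.0135). Of 10 heparan sulfate core proteins, 7 rose and 3 fell in Lipo, led by Agrn, which rose by 0.94 (adjusted p = 2.58e-04), and by the cell surface syndecan Sdc4 at -1.20 (adjusted p = 3.20e-04). As a reference for the organelle, of 33 other resident proteins of the Golgi 13 rose and 2 fell in Lipo, with a median log2 difference of 0.20 beside 0.21 for the 40 genes described here. Man2a2 and Man2a1, mannosidases of N-glycans, led them with 1.12 (adjusted p = 3.01e-04) and 0.98 (adjusted p = 6.41e-04).

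Markers of cell types also differed between the groups. The summed level of 9 chondrocyte markers was 8609 to 10080 FPKM in Uninvolved, 5469 to 10100 in Saline, 9485 to 15160 in Lipo and 11800 to 17170 in Lipo-CGS. Col2a1 made up most of this sum and did not pass against Uninvolved in Lipo (0.39, adjusted p = 0.268) or Lipo-CGS (0.57, adjusted p = 0.120). Of the 9, 4 rose and 0 fell in each, beside 26.5% and 28.9% of all tested genes in Lipo and 23.6% and 26.1% in Lipo-CGS. Sox9, Hapln1, Matn3 and Cnmd had fitted differences below 0 in Lipo, and Sox9 and Hapln1 also in Lipo-CGS. The 7 markers of fibroblasts and synovial lining summed to 552 to 903 FPKM in Uninvolved and 697 to 1429 in Saline. In Lipo they summed to 1237 to 1712 FPKM and in Lipo-CGS to 502 to 791. Most of the Lipo sum was 1 gene, Col1a1, at 1004 ± 319 FPKM. Col1a1 was at 81.4 ± 55.8 FPKM in Uninvolved, 304.5 ± 405.2 in Saline and 85.0 ± 2.58 in Lipo-CGS. In Lipo 6 of the 7 rose and 1, Prg4, fell (-1.14, adjusted p = 0.016), while in Lipo-CGS 4 rose and 0 fell against Uninvolved. Those 4 were Col14a1 with 3.44 (adjusted p = 4.40e-04), Thy1 with 1.26 (adjusted p = 0.00533), Pi16 with 0.58 (adjusted p = 0.01005) and Pdgfra with 0.55 (adjusted p = 0.00117), and Prg4, at 506 ± 175 FPKM in Uninvolved and 383 ± 129 in Lipo-CGS, made up most of the sum in both. Leukocyte markers, 9 genes, summed to 45.2 to 71.7 FPKM in Uninvolved, 47.9 to 56.8 in Saline, 24.3 to 26.7 in Lipo and 27.2 to 37.1 in Lipo-CGS, with the defining marker Ptprc at most at 0.09 FPKM. Most of the leukocyte sum was 1 gene, Cd14, at 46.6 ± 9.29 FPKM in Uninvolved and 21.7 ± 2.18 in Lipo. Markers of bone cells, 5 genes, summed to 92.2 to 124 FPKM in Uninvolved and 46.6 to 104 in Saline. The sum was 40.7 to 93.5 FPKM in Lipo and 21.4 to 29.4 in Lipo-CGS. Nearly all of it was Ibsp, at 112 ± 18.4 FPKM in Uninvolved and 24.8 ± 3.95 in Lipo-CGS. Bglap, Sp7, Dmp1 and Sost reached at most 0.89 FPKM in any library, so the sum describes 1 gene. Endothelial markers summed to at most 0.21 FPKM and erythroid markers to at most 0.05 FPKM in any library. The part of these cells in the differences above was not tested.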

How the data were processed

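The RNA of articular chondrocytes was sequenced in 12 libraries, 3 per group. By the paper's methods the authors aligned single reads of 50 bp from a HiSeq 4000 with STAR 2.4.5a to Rnor_6.0 and counted them with featureCounts of Subread 1.4.6-p3, while the submitters' processing notes name HTSeq. The authors deposited FPKM values with 2 decimals per gene symbol. How they were made from counts is not given in the sources used here, and count tests were not run. Strand use in counting is not stated, so reads of overlapping and antisense genes cannot be told apart.

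Columns were matched to samples by name. No 2 columns were identical. The total of all FPKM values ran from 406629.71 to 544170.19 per library and the genes at 1 FPKM or more from 10858 to 11109. Reads behind each value are unknown. Steps between the low FPKM values of 23 rarely detected genes gave a relative depth of 0.806 to 1.08.

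Values were analyzed as log2(FPKM + 0.5). A gene was kept if it reached 1 FPKM in 3 or more libraries (11373 of 28546). A single limma fit (version 3.58.1, R 4.3.3, trended eBayes) covered the 4 groups, with 8 residual and 3.65 prior degrees of freedom, and p-values were adjusted by Benjamini-Hochberg over all genes tested. The threshold was an adjusted p under 0.05. A second one, which also asked for a change over 1.5-fold, was an alternative. The fit was tested on simulated data. Python 3.11.15 with matplotlib 3.10.9 drew the figures.

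All 44 genes are accounted for. Values per library are given for the 3 genes of each step with the smallest adjusted p in Lipo against Uninvolved and for the 6 with the smallest in Lipo-CGS against Lipo, and genes that passed in any comparison are named. Other genes with values per library were added after their values were seen. A result for 1 gene of a neighboring list is not reported here. Members and lists were chosen with earlier results of these data known. The alternatives were another pseudocount (0.1 or 1), filter (none or 5 FPKM), scaling (median of ratios) or threshold, robust eBayes, fits to fewer groups, the replicate block, and each library left out in turn. Promoters are those of RefSeq on GRCr8, which is not the authors' build, and none of the coordinates was compared with the table.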

Additional observations from a re-analysis of the deposited data

How the results depend on the processing

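Every alternative left the counts of members at 0 in Lipo-CGS against Lipo and in Saline against Uninvolved. Requiring a fold change over 1.5 lowered the members higher and lower to 9 and 0 in Lipo and 10 and 1 in Lipo-CGS against Uninvolved, and those higher to 8 in Lipo (0 lower) and 8 in Lipo-CGS against Saline. At an adjusted p under 0.01, 1 member was lower in Lipo and 1 in Lipo-CGS against Uninvolved, 0 were lower in Lipo against Saline and 9 were higher in Lipo-CGS against Saline. The other counts at 0.01 and the shares of all tested genes there are not given here. These counts can therefore not be set against all tested genes. Leaving out each library in turn gave 13 to 19 higher and 1 to 3 lower in Lipo against Uninvolved, with 1 lower without Lipo replicate 3. It gave 12 to 17 and 1 to 4 in Lipo-CGS against Uninvolved, with 4 lower without Uninvolved replicate 3 and 1 lower without Lipo-CGS replicate 1 or Uninvolved replicate 1. It gave 13 to 18 and 0 to 2 in Lipo against Saline, with 0 lower without Lipo replicate 3 and 2 lower without Uninvolved replicate 3. It gave 10 to 22 and 0 to 1 in Lipo-CGS against Saline. There were 10 higher without Lipo-CGS replicate 3, and 11 higher and 1 lower without Saline replicate 3. Shares of all tested genes in these fits ran from 20.3% to 27.9% higher and 23.5% to 30.4% lower in Lipo against Uninvolved. In Lipo-CGS against Uninvolved they ran from 16.5% to 26.8% and 20% to 28.8%. Against Saline they ran from 16.6% to 24% and 19.5% to 26.3% in Lipo. In Lipo-CGS against Saline they ran from 12.1% to 21.4% and 16% to 24.1%.

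Of the named genes that passed, 14 of 18 in Lipo and 13 of 18 in Lipo-CGS against Uninvolved, and 13 of 17 and 9 of 18 against Saline, passed in every alternative fit. The 1 direction that turned was that of Papss1 in Lipo against Uninvolved, from -0.36 without Lipo replicate 2 to 0.072 without Lipo replicate 1, with no pass in either fit. Deviations of same-numbered libraries correlated at -0.216 to 0.198 between groups. Without such values for differently numbered libraries, these cannot decide whether replicate numbers pair the libraries. With the replicate block 16 members were higher and 2 lower in Lipo and 15 and 2 in Lipo-CGS against Uninvolved. Shares of all tested genes were 25% and 27.5% in Lipo and 21.6% and 24.7% in Lipo-CGS. Against Saline the members were 14 and 1 in Lipo and 18 and 0 in Lipo-CGS, beside 19.6% and 22.9%, and 16% and 20.2%. Read depth is unknown, and levels under 1 FPKM, those of Chst15 in Uninvolved among them, depend on the pseudocount.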

Other observations

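Keratan sulfate and hyaluronan are the other glycosaminoglycans of cartilage, the first sulfated and attached to proteins and the second free and unsulfated. Of 12 tested genes for keratan sulfate, 2 rose and 3 fell in Lipo against Uninvolved, beside 26.5% and 28.9% of all tested genes, with a median log2 difference of -0.15. Chst1, a keratan sulfate 6-O-sulfotransferase, fell from 4.13 ± 0.251 FPKM in Uninvolved to 2.1 ± 0.141 in Lipo, -0.83 (adjusted p = 2.05e-04). B3gnt7, which extends the chain, fell from 7.31 ± 0.845 to 2.95 ± 0.672 FPKM, -1.19 (adjusted p = 2.84e-04). In Lipo-CGS they were at 2.27 ± 0.291 and 4.897 ± 0.275 FPKM, with differences from Uninvolved of -0.75 (adjusted p = 5.27e-04) and -0.53 (adjusted p = 0.0238).

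Of 6 tested genes for hyaluronan, 2 rose and 0 fell in Lipo, beside 26.5% and 28.9% of all tested genes. Cemip, which binds and breaks down hyaluronan, went from 7.13 ± 2.03 to 43.9 ± 12.3 FPKM, 2.53 (adjusted p = 1.54e-05), and stood at 32.8 ± 0.686 FPKM in Lipo-CGS, 2.16 (adjusted p = 7.23e-05). Hyal1, a hyaluronidase, rose by 0.96 (adjusted p = 5.98e-04). Of 13 genes listed for the lysosomal degradation of glycosaminoglycans, 6 rose and 0 fell in Lipo and 11 rose and 0 fell in Lipo-CGS against Uninvolved. Of all tested genes 26.5% and 28.9% did so in Lipo and 23.6% and 26.1% in Lipo-CGS. The 11 include Sumf1 (0.55, adjusted p = 0.00174), which is not itself a degrading enzyme. Between Lipo-CGS and Lipo 0 of the 13 passed in either direction by limma. Ids, the sulfatase of iduronate lost in Hunter syndrome, rose by 1.00 (adjusted p = 0.00347) in Lipo and Arsk, a glucuronate sulfatase, by 0.46 (adjusted p = 0.00488). These lists were chosen with earlier results of these data known, and were counted, not tested as sets.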
